A study of Mus musculus with 2 samples.

Results

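The 7 genes described here encode the receptors through which skin leukocytes bind the Fc part of IgE and IgG: Fcer1a, Ms4a2 and Fcer1g, which give the alpha, beta and gamma chains of the high-affinity IgE receptor FcεRI, and the IgG receptor genes Fcgr1, Fcgr2b, Fcgr3 and Fcgr4. They were taken by symbol from the 35208 gene rows of a single-cell RNA-seq matrix, and all 7 were found. The cells came from ear skin lesions of IgE-dependent chronic allergic inflammation (IgE-CAI) in BALB/c wild-type (WT) mice and in Ccr2-/- mice of the same background, which lack the chemokine receptor that lets inflammatory monocytes leave the bone marrow. All mice were given 300 µg of anti-TNP IgE intravenously and 10 µg of TNP-OVA into the ear skin on the next day, so that no pool without IgE or without antigen enters the comparisons. Lesions were taken on day 3 or day 5 after the antigen, and each combination of genotype and day was 1 hashtag pool, with the number of mice in a pool not stated. The study describes its mice as male, and gives their age as a range in weeks that is not broken down by pool.

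FcεRI holds IgE on the cell surface before antigen arrives, and antigen that bridges the bound IgE starts degranulation and cytokine release. In mice the receptor reaches the surface as 1 complex of the IgE-binding alpha chain, the signal-amplifying beta chain and a pair of gamma chains, and mast cells and basophils are the cells known for carrying it. The gamma chain also serves the activating IgG receptors FcγRI (Fcgr1), FcγRIII (Fcgr3) and FcγRIV (Fcgr4), whereas FcγRIIB (Fcgr2b) signals through its own inhibitory motif and restrains cells in which it is crosslinked with an activating receptor. A cell can therefore hold the whole IgE receptor only if it expresses all 3 chain genes, and the data were read for which cells did.

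Of 8953 barcodes in the expression matrix, 8696 were also in the hashtag table, and 7118 cells were kept after assignment to a single pool, with 1543 and 1037 cells from WT mice on days 3 and 5 and 2191 and 2347 from Ccr2-/- mice on the same days. The median depth per cell was 39778, 48232, 34410 and 18632 reads in that order. Wherever 4 values follow each other below, they keep this order of pools, and 3 values leave out WT day 5. The values are reads without molecular identifiers, so every interval and floor below covers counting error only and copies of 1 molecule are counted more than once. Cell types were gated on marker genes that include none of the 7 members, and 5371 cells (75.5%) received a type. Mast-cell-gated cells had reads of the chymase Mcpt4 in 99.0% and of Kit in 80.6%, basophil-gated cells had Mcpt8 in 98.5%, neutrophil-gated cells had S100a9 in 97.2%, and the cells gated as monocytes and macrophages (Mo-Macs) had Csf1r in 97.1% of cells. Prss34, a second basophil protease, had reads in 10.9% of basophil-gated cells, and 11 of the 129 basophil-gated cells had at least 1 mast cell marker on. Mo-Mac-gated cells numbered 417 and 425 in the WT pools against 126 and 90 in the Ccr2-/- pools. In these cells Ccr2 stood at 925 and 703 CPM, summed reads per 1000000 reads of the cells, in the WT pools. In the Ccr2-/- pools it stood at 96.0 and 96.1 CPM, and 1 cell held 31.4% and 32.4% of its reads. A Ccr2 read was found in 73.1% and 61.9% of the WT cells and in 23.0% and 30.0% of the Ccr2-/- cells.

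Levels below are such CPM values, which are not divided by gene length, so levels are compared between cell types and pools and not between genes. Differences between cell types were tested with edgeR's quasi-likelihood test on reads summed per pool and type, with the pool as a term, and were called at an adjusted p under 0.05 over all genes tested. Only sums of at least 10 cells entered, which left 3 pools for mast-cell-gated, basophil-gated and neutrophil-gated cells, 4 for Mo-Mac-gated cells and 1 for migratory dendritic cells (DCs), for which no test is given.

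**Figure D1:**
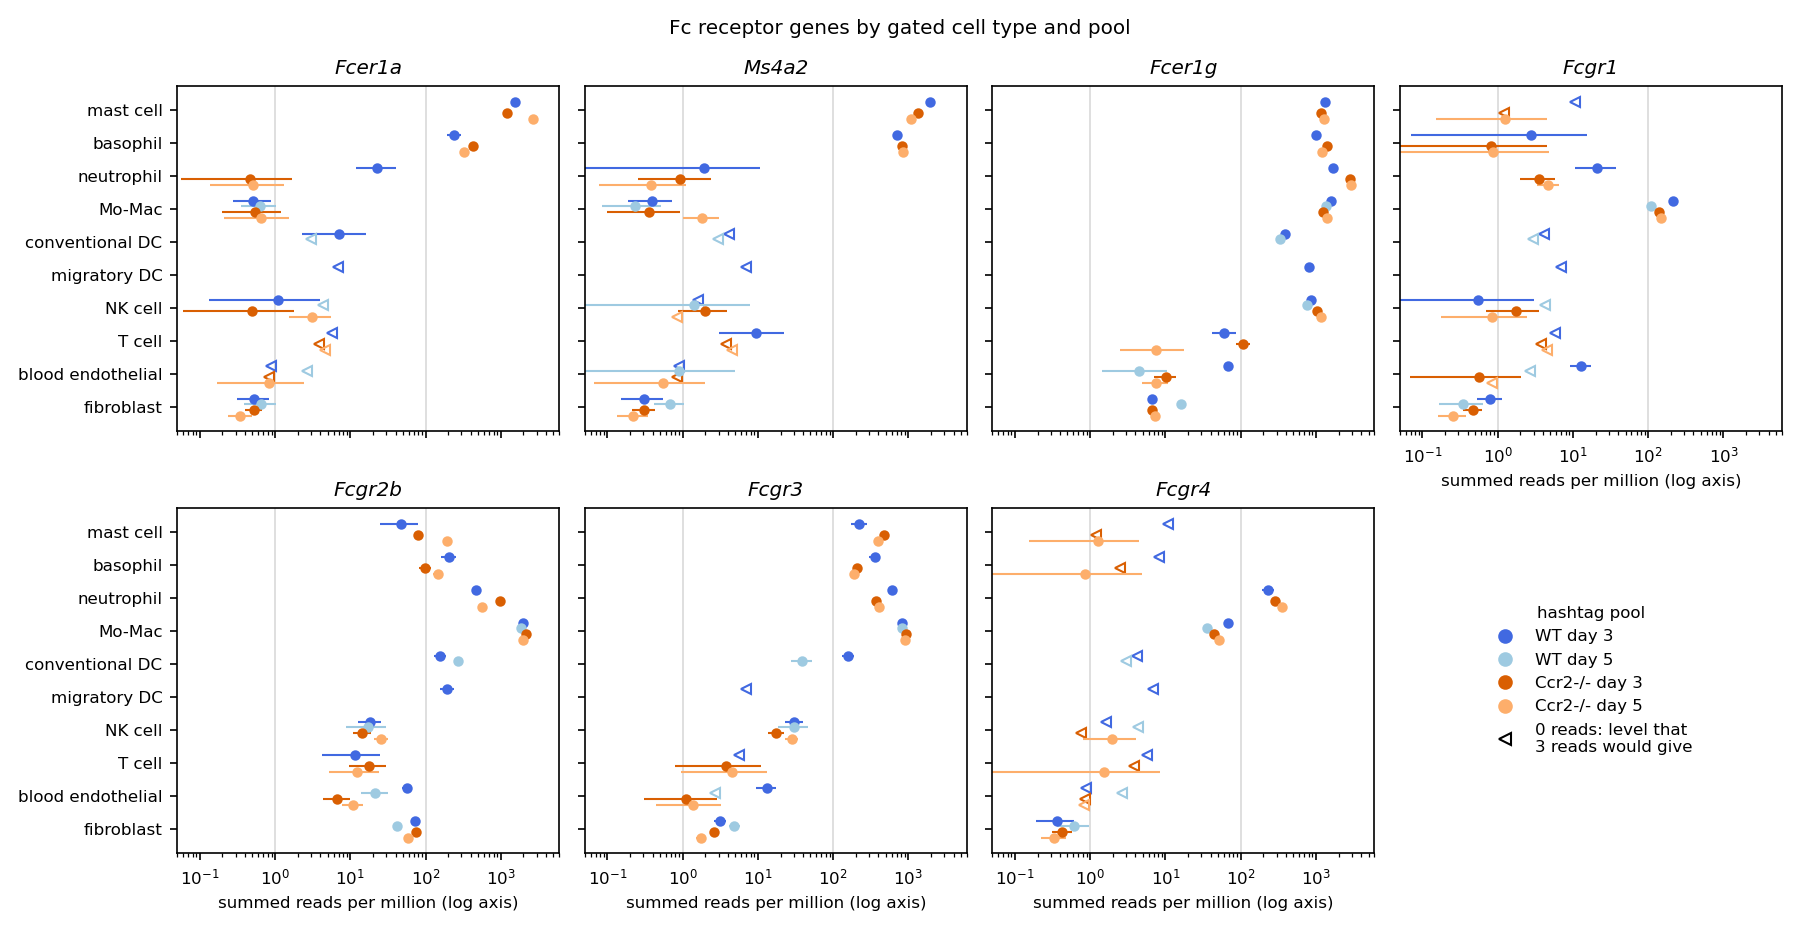
Summed CPM (log axis) of each receptor gene in 10 gated cell types, with 1 point per hashtag pool of at least 10 cells and exact Poisson intervals; open triangles mark 0 reads and stand at the level that 3 reads would give. Fcer1a stands at 239 CPM or more in mast-cell-gated and basophil-gated sums and at 23.0 CPM or less in every other sum drawn, whereas Fcer1g stands at 333 CPM or more in every sum of mast cells, basophils, neutrophils, Mo-Macs, DCs and NK cells.

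Fcer1a, the chain that binds IgE, was read almost entirely in mast-cell-gated and basophil-gated cells. The gene lies on chr1:173221284-173227214 (minus strand, GRCm38). Mast-cell-gated cells held 80.3% of its 10273 reads and 1.45% of the kept cells, and basophil-gated cells held 13.0% of its reads and 1.81% of the cells. Its level in mast-cell-gated cells was 1542 CPM in WT day 3 (10 cells), 1728 in WT day 5 (8 cells), 1214 in Ccr2-/- day 3 (56 cells) and 2658 in Ccr2-/- day 5 (29 cells). In basophil-gated cells it was 239 CPM in WT day 3 (22 cells), 428 in Ccr2-/- day 3 (55 cells) and 322 in Ccr2-/- day 5 (51 cells), and the single basophil-gated cell of WT day 5 gave 1239. The mast cell values were above the basophil values in each of the 4 pools. In WT mast cells 1 cell held 45.1% (day 3) and 48.9% (day 5) of the Fcer1a reads, and in WT day 3 basophils 1 cell held 59.8%. That basophil-gated cell had a mast cell marker on, and without cells of that kind the WT day 3 basophil level was 98.8 CPM. Mo-Mac-gated cells gave 0.512 to 0.652 CPM over the 4 pools, and fibroblasts, which lack the receptor and serve as the background of free RNA, gave 0.345 to 0.651 CPM. Fibroblasts had a median of 96159.5 reads per cell, against 19768 in basophils and 9585 in neutrophils. Their values, here and for the other genes, can therefore understate the background of shallower cells. The value of 23.0 CPM in WT day 3 neutrophils rested on 12 reads, of which 91.7% were in 1 cell.

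Ms4a2, the beta chain that amplifies the signal, was like Fcer1a highest in mast cells and next highest in basophils. It lies on chr19:11615523-11623719 (minus strand). Its level in mast-cell-gated cells was 1943, 1212, 1337 and 1092 CPM over the 4 pools. Basophil-gated cells gave 704, 816 and 852 CPM. The 3 basophil sums did not overlap the mast cell values, of which the lowest was the Ccr2-/- day 5 pool. Mast cells held 64.7% and basophils 26.6% of the 9266 Ms4a2 reads, a larger basophil share than for Fcer1a. Mo-Mac-gated cells stood at 0.235 to 1.83 CPM and fibroblasts at 0.222 to 0.685 CPM.

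Fcer1g, the gamma chain, was read in nearly every leukocyte type. It lies on chr1:171229572-171234365 (minus strand). Mast-cell-gated cells gave 1312, 1349, 1160 and 1269 CPM in the order of pools above, and basophils 998, 1400 and 1198 CPM in the 3 pools with at least 10 cells. Neutrophils gave 1676 CPM in WT day 3, 2857 in Ccr2-/- day 3 and 2896 in Ccr2-/- day 5. Mo-Macs gave 1603, 1375, 1260 and 1404 CPM, so that mast cells, basophils and Mo-Macs overlapped. The WT day 3 neutrophils stood beside the WT day 3 Mo-Macs, and the Ccr2-/- neutrophils above every Mo-Mac sum. NK cells followed with 753 to 1185 CPM, the migratory DCs of WT day 3 with 815 CPM and conventional DCs with 333 and 385 CPM. T cells gave 7.60 to 109 CPM and fibroblasts 6.55 to 16.1 CPM. Of the 188193 Fcer1g reads, Mo-Macs held 53.4%, neutrophils 19.2% and mast cells 3.03%. These shares also depend on the number and depth of the cells. Mo-Macs numbered 1058 with a median of 52608.5 reads per cell, neutrophils 1171 with 9585 and mast cells 103 with 42043.

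The promoter windows of the 3 chain genes are printed because the alpha and beta chain genes shared their cell types and the gamma chain gene did not. Each window runs from 250 bases before to 50 after the RefSeq start, 5′ to 3′ on the gene's strand in GRCm38.p6, and all 7 members had one. Capitals mark AGATAA, the core bound by GATA factors, or GAGGAA, the core of the PU box bound by the myeloid factor encoded by Spi1, each searched on both strands (TTATCT and TTCCTC on the other), with no overlap between the motifs. The Fcer1a window lies at chr1:173227180-173227479, the Ms4a2 window at chr19:11623670-11623969 and the Fcer1g window at chr1:171234300-171234599, all on the minus strand.
Fcer1a: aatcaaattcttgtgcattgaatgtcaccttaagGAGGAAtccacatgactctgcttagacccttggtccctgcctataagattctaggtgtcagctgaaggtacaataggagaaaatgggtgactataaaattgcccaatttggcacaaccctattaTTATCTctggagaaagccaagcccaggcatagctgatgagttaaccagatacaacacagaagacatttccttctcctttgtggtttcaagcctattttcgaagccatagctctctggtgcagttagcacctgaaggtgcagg
Ms4a2: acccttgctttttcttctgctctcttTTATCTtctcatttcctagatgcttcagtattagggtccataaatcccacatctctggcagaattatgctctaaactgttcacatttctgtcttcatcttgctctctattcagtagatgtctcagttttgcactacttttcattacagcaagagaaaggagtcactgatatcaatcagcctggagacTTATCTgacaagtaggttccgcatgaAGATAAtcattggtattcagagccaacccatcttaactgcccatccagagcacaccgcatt
Fcer1g: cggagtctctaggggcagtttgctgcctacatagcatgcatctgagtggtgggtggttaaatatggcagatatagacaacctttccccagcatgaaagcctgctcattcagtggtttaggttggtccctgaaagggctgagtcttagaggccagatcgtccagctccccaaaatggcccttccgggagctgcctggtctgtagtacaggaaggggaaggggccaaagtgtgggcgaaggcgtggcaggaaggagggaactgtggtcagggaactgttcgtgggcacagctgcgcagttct
The Fcer1a window held 1 GATA core and 1 PU box core, the Ms4a2 window 3 GATA cores and the Fcer1g window neither. Among 32851 promoters of the same length, 11.2% held AGATAA at least once and 0.107% at least 3 times, and 28.3% held GAGGAA. Among the IgG receptor genes, the windows of Fcgr1, Fcgr3 and Fcgr4 each held 1 GAGGAA, that of Fcgr2b held none, and none of these 4 held AGATAA. A match describes these letters and was not tested as a binding site.

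Mast cells and basophils were told apart from Mo-Macs by the alpha and beta chain genes and not by the gamma chain gene. In mast cells against Mo-Macs, 2 members were called higher, against a background of 2.97% of the 15661 genes tested: Fcer1a by 11.15 on the log2 scale (SE 1.14, adjusted p = 1.52e-06, edgeR) and Ms4a2 by 10.75 (SE 0.949, adjusted p = 1.31e-07). In basophils against Mo-Macs the same 2 members were called higher, against a background of 6.46%, by 9.21 (SE 1.07, adjusted p = 5.04e-06) and 10.26 (SE 0.931, adjusted p = 1.38e-07). These 4 calls held under each of the 13 alternative settings. Fcer1g differed by -0.43 in mast cells (SE 0.422, adjusted p = 0.678) and by -0.15 in basophils (SE 0.422, adjusted p = 0.847), neither of which passed the test. Between mast cells and basophils none of the 7 members was called, where 9.90% of all genes were. The fitted difference in Fcer1a was 1.94 higher in mast cells (SE 0.763, edgeR adjusted p = 0.12), and over the 13 alternatives it ranged from 1.53 to 2.55 with adjusted p from 0.000296 to 0.358, called in 4 of them. That for Ms4a2 was 0.50 (SE 0.631, adjusted p = 0.692). Each type had 3 pools, and a missed call does not show equal levels.

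Transcripts of all 3 chains were read in single cells of the mast cell and basophil gates. These are RNA reads, and the receptor on the cell surface was not measured. A chain without a read does not show that a cell lacked the receptor. To compare cells at 1 depth, each was thinned at random to 10000 reads, which left out 10 mast cells and 14 basophils that were shallower. All 3 chains had a read in 69 of 93 mast-cell-gated cells (74.2%, exact 95% interval 64.1 to 82.7) and in 40 of 115 basophil-gated cells (34.8%, 26.1 to 44.2). The count was 0 in 1019 Mo-Macs, 549 neutrophils, 268 NK cells and 1999 fibroblasts, and the fibroblast count of 0 allows a share of up to 0.150% by a floor of 3 cells (exact upper limit 0.184%). By pool, 5 of 8, 8 of 8, 35 of 52 and 21 of 25 mast cells had all 3 chains, and 2 of 19, 1 of 1, 22 of 49 and 15 of 46 basophils. The mast cell share was above the basophil share in the 3 pools with more than 1 basophil. Before thinning the shares were 73.8% of 103 mast cells and 36.4% of 129 basophils, at median depths of 42043 and 19768 reads. Without the basophil-gated cells that had a mast cell marker on, the share was 37 of 105 (35.2%).

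Alpha was the chain most often missing in both gates. Among thinned mast cells, 17.2% had beta and gamma without alpha, and no other incomplete combination exceeded 3.23%. Among thinned basophils, 27.8% had beta and gamma without alpha, and 20.9% had gamma alone. Fcer1a had a read in 79.6% of mast cells and 45.2% of basophils, Ms4a2 in 94.6% and 69.6%, and Fcer1g in 95.7% and 91.3%. The same shares in thinned fibroblasts were 0.40% for Fcer1a, 0.35% for Ms4a2 and 5.10% for Fcer1g. Shallow sequencing leaves out low genes, so deeper cells were counted as well. Of 79 mast cells with at least 20000 reads, 13 (16.5%) had no Fcer1a read, 12 of them with Ms4a2 reads, and of 63 such basophils, 28 (44.4%) had none, 14 of them with Ms4a2 reads.

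**Figure D2:**
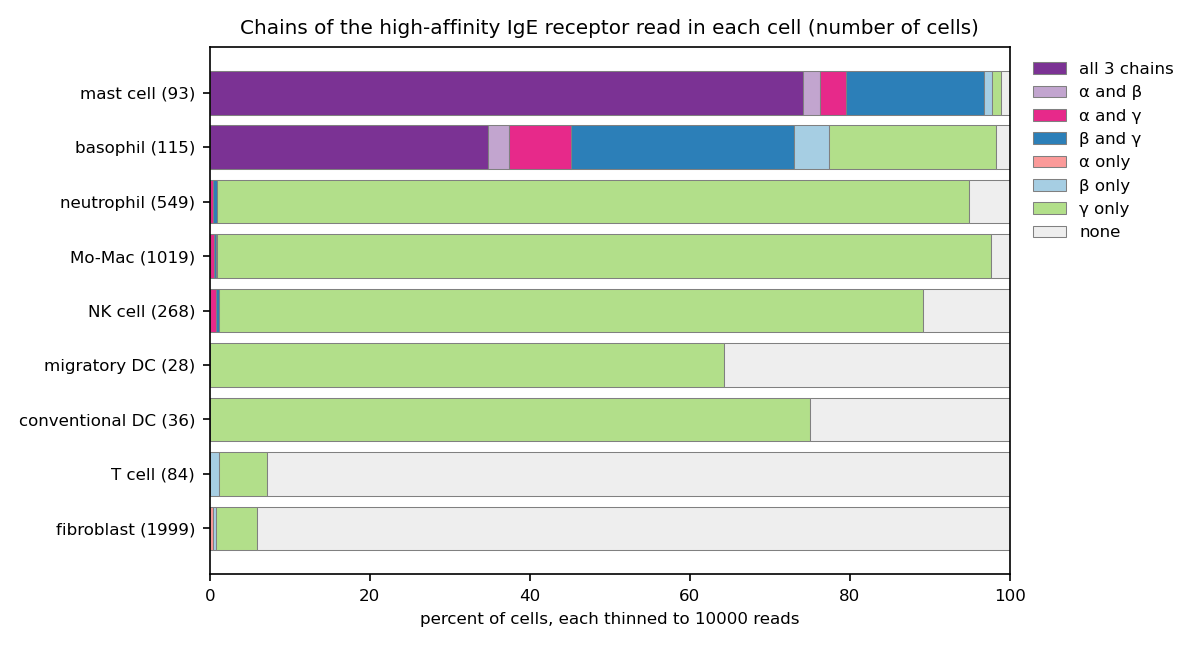
Percent of cells of each gated type, thinned to 10000 reads, that had reads of each combination of the alpha (Fcer1a), beta (Ms4a2) and gamma (Fcer1g) chain genes; the number of cells is given beside the type. All 3 chains were read in 74.2% of mast-cell-gated and 34.8% of basophil-gated cells, and most neutrophils, Mo-Macs and NK cells had gamma alone.

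**Figure D3:**
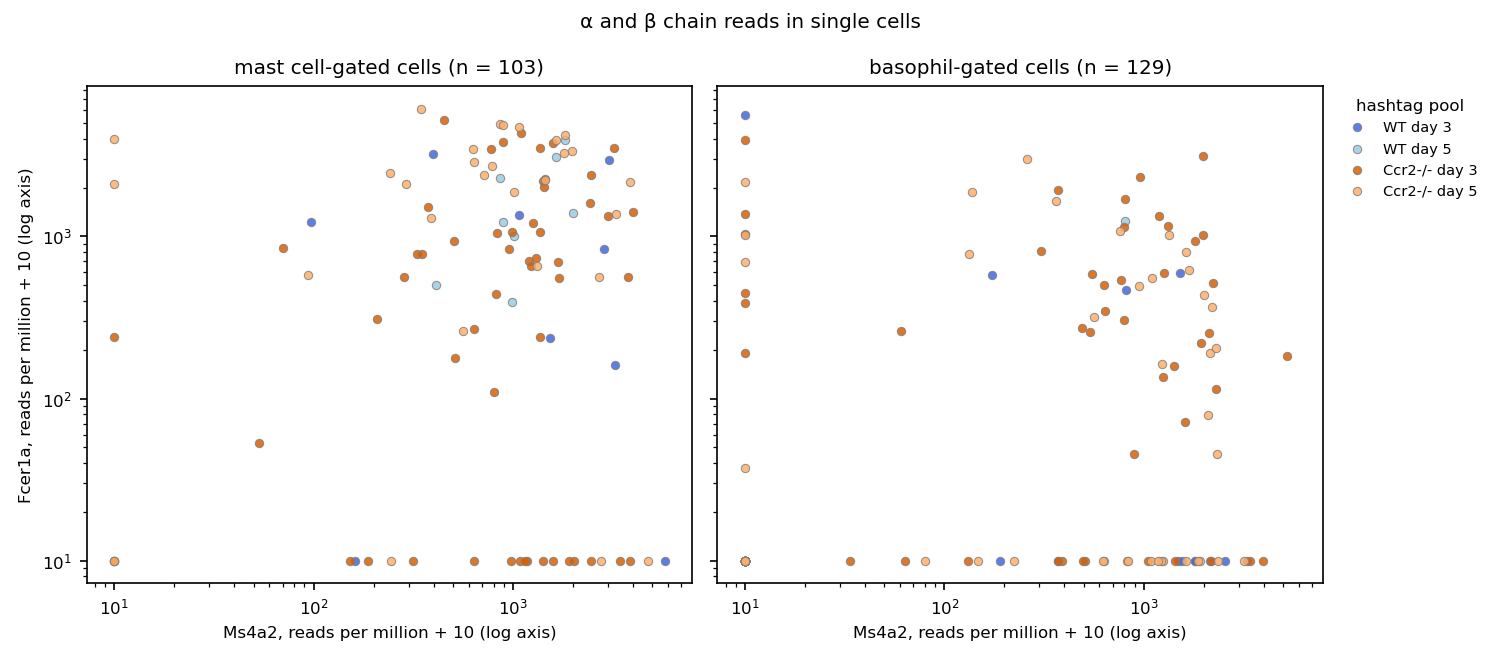
CPM + 10 (log axes) of Fcer1a (vertical) and Ms4a2 (horizontal) in single mast-cell-gated (left) and basophil-gated (right) cells, 1 point per cell, coloured by hashtag pool. Points on the lower edge had no Fcer1a read, as 44.4% of the basophils and 16.5% of the mast cells with at least 20000 reads did.

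Counted from the receptor instead of from the gate, 116 of the 7118 kept cells had at least 3 reads of each of Fcer1a, Ms4a2 and Fcer1g without thinning. Of these, 70 were gated as mast cells, 36 as basophils and 0 as any of the 15 other types. The other 10 had no type, and each of the 10 had at least 2 mast cell or basophil markers on. With at least 1 read of each chain the number was 141, of which 76 were mast cells, 47 basophils, 13 without a type, 2 fibroblasts and 1 each a neutrophil, a Mo-Mac and an NK cell.

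The activating IgG receptor genes had different cells from each other. Fcgr1, which encodes the high-affinity IgG receptor FcγRI, lies on chr3:96282909-96293969 (minus strand). It was at 215, 109, 141 and 150 CPM in Mo-Macs of the 4 pools, and Mo-Macs held 84.8% of its reads. Neutrophils gave 21.1, 3.5 and 4.68 CPM in the 3 pools with at least 10 cells, all below the Mo-Mac range. Mast cells had 2 reads in all 103 cells (0.427 CPM, 0.0517 to 1.54) and basophils 3 reads in 129 (0.993 CPM, 0.205 to 2.90). Conventional DCs and the migratory DCs had 0 reads. After thinning, 42.6% of Mo-Macs and 0.30% of fibroblasts had an Fcgr1 read.

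Fcgr3 encodes FcγRIII, a low-affinity receptor for IgG complexes that signals through the gamma chain, and it was the IgG receptor gene read in most mast cells. It lies on chr1:171051174-171064935 (minus strand). Mast cells gave 222, 366, 474 and 400 CPM, and basophils 355, 208 and 191 CPM in their 3 pools. Mo-Macs gave 817, 831, 934 and 913 CPM, above every mast cell and basophil sum, and neutrophils 605, 373 and 412 CPM. NK cells, which carry FcγRIII in textbooks, gave 17.7 to 30.2 CPM, and fibroblasts 1.78 to 4.87 CPM. After thinning, a read was found in 74.2% of mast cells, 40.0% of basophils, 92.0% of Mo-Macs, 48.1% of neutrophils, 9.33% of NK cells and 2.20% of fibroblasts. Fcgr3 and Fcer1g were read together in 72.0% of mast cells, 90.2% of Mo-Macs, 45.7% of neutrophils and 37.4% of basophils.

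Fcgr4, whose product FcγRIV is a mouse receptor of intermediate affinity for IgG, had its highest level in neutrophils. It lies on chr1:171018920-171029761 (plus strand), between Fcgr2b and Fcgr3. Neutrophils gave 232, 282 and 351 CPM, and Mo-Macs 67.2, 36.0, 44.6 and 51.0 CPM, so sums of at least 10 cells did not overlap. The 6 neutrophils of WT day 5 had 0 reads, with an upper limit of 50.4 CPM. Neutrophils held 46.3% of the 8865 reads and Mo-Macs 39.6%. Mast cells and basophils had 2 reads each over all pools. Thinned neutrophils had a read in 39.7% of cells and Mo-Macs in 17.4%, against 0.35% of fibroblasts. Fcgr4 and Fcer1g were read together in 38.4% of neutrophils and 17.2% of Mo-Macs.

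Fcgr2b, the gene of the inhibitory receptor FcγRIIB, had its highest level in Mo-Macs. It lies on chr1:170958617-170976547 (minus strand) and overlaps the antisense gene Gm38204, whose reads cannot be told apart from it without strand. Mo-Macs gave 2000, 1856, 2138 and 1974 CPM and held 72.5% of its reads. Neutrophils gave 465, 973 and 558 CPM, mast cells 46.6, 64.1, 79.9 and 192 CPM and basophils 204, 98.9 and 146 CPM. In Ccr2-/- day 5 mast cells 1 cell held 39.9% of the reads, and in WT day 3 basophils 1 cell held 41.9% of 74 reads. Fcgr2b was also read in fibroblasts, at 41.1 to 75.4 CPM and in 20.4% of thinned cells. Fibroblasts held 9.16% of its reads, as the most numerous type, with 2100 cells and a median of 96159.5 reads per cell.

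Relative to Mo-Macs, mast cells and basophils had less of each IgG receptor gene. In mast cells 4 members were called lower against a background of 5.43%: Fcgr2b by -4.45 on the log2 scale (SE 0.442, adjusted p = 4.75e-07, edgeR), Fcgr3 by -1.48 (SE 0.424, adjusted p = 0.03), and Fcgr1 and Fcgr4, whose fold is not given because 2 reads each stood in the mast cell sums. In basophils the same 4 members were called lower against a background of 10.9%, Fcgr2b by -3.57 (SE 0.421, adjusted p = 3.43e-06) and Fcgr3 by -1.77 (SE 0.428, adjusted p = 0.00631). Fcgr2b was called in all 13 alternatives of both comparisons, and Fcgr3 in 6 of 13 for mast cells, with adjusted p from 0.00094 to 0.177, and in 10 of 13 for basophils, from 2.76e-05 to 0.0998. The Fcgr3 call in mast cells therefore depended on the setting.

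Relative to Mo-Macs, neutrophils had more Fcgr4 and Fcer1g and less Fcgr1 and Fcgr2b. The 2 members called higher stood against a background of 10.2%, Fcgr4 by 2.77 (SE 0.67, adjusted p = 0.0055, edgeR) and Fcer1g by 1.20 (SE 0.423, adjusted p = 0.0469). The 2 called lower stood against 11.0%, Fcgr1 by -4.11 (SE 0.841, adjusted p = 0.00181) and Fcgr2b by -1.12 (SE 0.38, adjusted p = 0.0401). Fcgr3 differed by -0.60 (SE 0.411, adjusted p = 0.305). Fcgr1 was called in all 13 alternatives and Fcgr4 in 11, whereas Fcer1g was called in 6, with adjusted p from 0.00151 to 0.203, and Fcgr2b in 8, from 0.00206 to 0.344. Migratory DCs had 1 sum, the 10 cells of WT day 3, so their values are given with no test. Fcgr2b stood in them at 195 CPM (155 to 241) beside 2000 in the Mo-Macs of that pool, with 61.2% of its 85 reads in 1 cell. Fcgr1, Fcgr3 and Fcgr4 had 0 reads of 436862, and against a floor of 3 reads in that sum their levels were at least 31.3-, 118.9- and 9.79-fold lower than in the Mo-Macs of the same pool.

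The balance of the inhibitory Fcgr2b against the activating Fcgr3 separated mast cells and basophils from Mo-Macs in the 3 pools with sums of all of them. There were 0.210, 0.169 and 0.479 Fcgr2b reads per Fcgr3 read in mast cells, and 0.574, 0.474 and 0.765 in basophils of the same pools, without WT day 5. Mo-Macs gave 2.45, 2.23, 2.29 and 2.16 in the 4 pools. Neutrophils ranged from 0.769 in WT day 3 to 2.61 in Ccr2-/- day 3, and fibroblasts from 8.45 to 32.6. Every mast cell and basophil sum was below every Mo-Mac sum. The mast cell ratio was below the basophil ratio within each of the 3 pools, with counting intervals that did not overlap. Across pools the ranges of these types overlapped, at 0.479 in Ccr2-/- day 5 mast cells and 0.474 in Ccr2-/- day 3 basophils. The difference between them was not tested. In single thinned cells, Fcgr2b and Fcgr3 were read together in 89.2% of Mo-Macs, 21.5% of mast cells and 15.7% of basophils. The ratio is not per length and is read between cell types only. The transcripts of the genes share 166 words of 50 bases, 10.2% of those of Fcgr3 and 4.48% of those of Fcgr2b, so reads from there could be given to either gene.

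**Figure D4:**
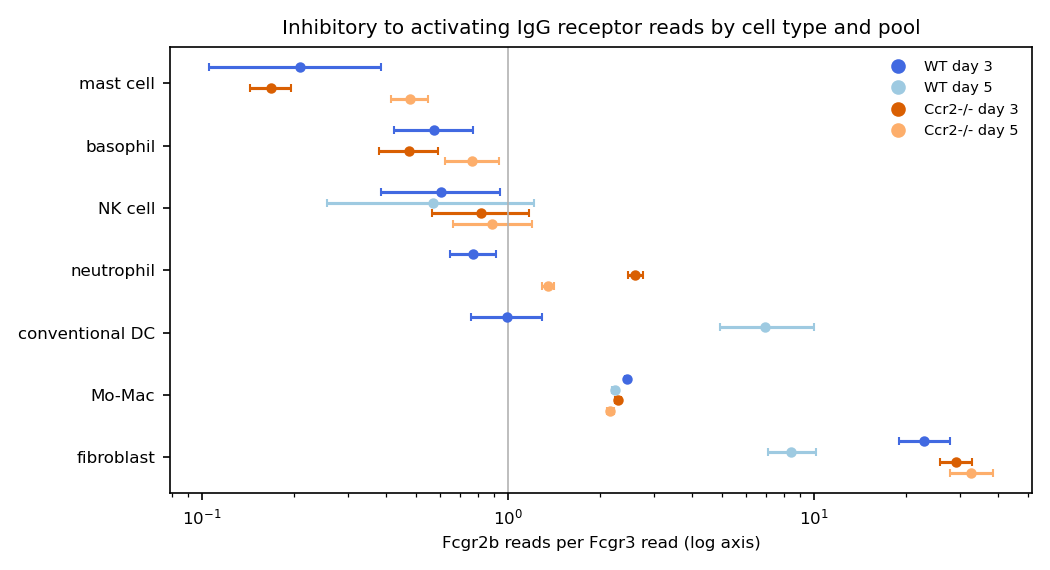
Fcgr2b reads per Fcgr3 read (log axis) by gated cell type, 1 point per hashtag pool of at least 10 cells, with exact intervals for the ratio of the read counts. Mast cells and basophils lie at 0.765 or less, Mo-Macs between 2.16 and 2.45, and fibroblasts at 8.45 or more.

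Within Mo-Macs, the activating genes Fcgr1 and Fcgr4 were lower on day 5 than on day 3 in the WT pools, whereas the Ccr2-/- ratios had intervals that included 1, as values of single pools with no test. On day 5 the WT level was 0.509 times the day 3 level for Fcgr1 (interval 0.486 to 0.533) and 0.535 times for Fcgr4 (0.494 to 0.580). In Ccr2-/- Mo-Macs the same ratios were 1.06 (0.983 to 1.15) and 1.14 (0.999 to 1.31). Fcer1g gave 0.858 in WT and 1.11 in Ccr2-/-. Fcgr2b gave 0.928 and 0.923, and Fcgr3 1.02 and 0.978. The WT day 3 pool was the highest of the 4 for Fcgr1, Fcgr4 and Fcer1g.

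Cells with at least 3 of 4 monocyte markers on, Ly6c2 and Plac8 among the markers, and no marker of the other Mo-Mac groups, were unevenly spread over the pools: 49 of these 56 Mo-Macs were in WT day 3. In those 49 cells Fcgr1 stood at 543 CPM and Fcgr4 at 134 CPM, whereas in the cells with at least 2 of Lyve1, Cd163 and Folr2 on, Fcgr1 was 158, 82.1, 107 and 116 CPM and Fcgr4 52.8, 28.8, 33.9 and 44.7 CPM over the pools in the same order. Leaving out every Mo-Mac with at least 3 monocyte markers on brought the WT ratios to 0.637 for Fcgr1, 0.702 for Fcgr4 and 0.900 for Fcer1g, and the Ccr2-/- ratios to 1.10, 1.24 and 1.12. This setting was added after seeing the data. Fcgr2b stood highest in Pdcd1lg2-positive Mo-Macs, at 2560 CPM over 110 cells, and lowest in Gpnmb-positive Mo-Macs, at 1120 CPM over 18 cells. A single marker defined each of these groups, and undetected reads put cells of a group elsewhere.

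**Figure D5:**
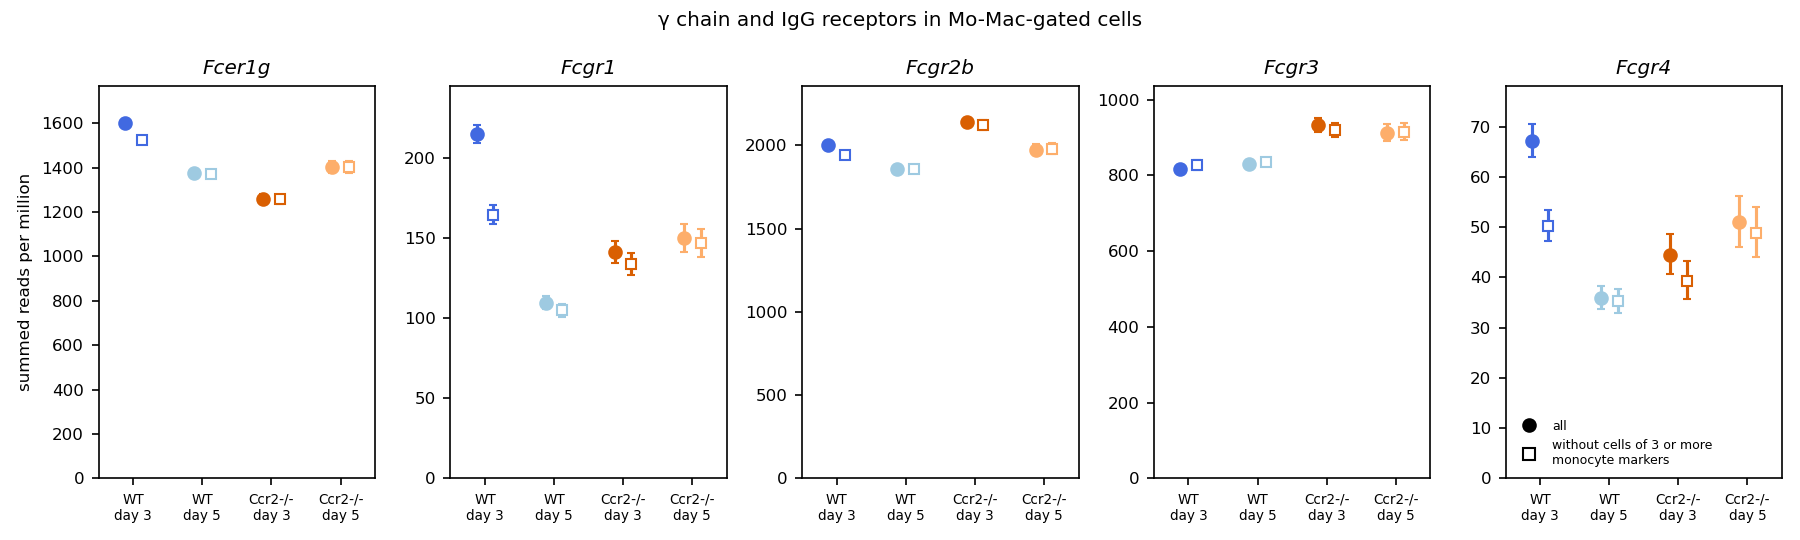
Summed CPM of the 5 genes read in Mo-Mac-gated cells by hashtag pool, with exact Poisson intervals; filled circles show all Mo-Macs and open squares those left without cells that had 3 or more monocyte markers on. Fcgr1 is highest in WT day 3 at 215 CPM and lower in the other 3 pools, and the open square of that pool lies at 165 CPM.

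Between Ccr2-/- and WT Mo-Macs over both days, no member was called, and none of the 16240 genes tested was (0.00%), with 2315 at an unadjusted p under 0.05 and 566 called by DESeq2. This fit had 1 residual degree of freedom. The differences were -0.13 for Fcer1g (SE 0.163, adjusted p = 0.763, edgeR), -0.05 for Fcgr1 (SE 0.287, adjusted p = 0.958), 0.12 for Fcgr2b (SE 0.139, adjusted p = 0.742), 0.19 for Fcgr3 (SE 0.147, adjusted p = 0.599) and -0.02 for Fcgr4 (SE 0.314, adjusted p = 0.983). Within a day, with 1 pool against 1 and no test, Fcgr1 in Ccr2-/- was 0.657 times WT on day 3 and 1.37 times WT on day 5, and Fcgr4 0.663 and 1.42 times. Fcgr2b was 1.07 and 1.06 times, and Fcgr3 1.14 and 1.10 times. For mast cells the WT day 5 pool held 8 cells, so the genotypes were not tested. There Fcer1a in Ccr2-/- was 0.788 times WT on day 3 (0.712 to 0.873) and 1.54 times on day 5 (1.41 to 1.68), opposite directions on the days with 10 and 8 WT cells.

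Lists of 17 genes of activating and 10 of inhibitory FcεRI signalling, and of 14 other Fc receptor and adaptor genes, were counted in the same fits. In mast cells against Mo-Macs, 4 of 17 activating genes were called higher and 0 lower, beside 2.97% of all genes higher and 5.43% lower, with a median of 0.46 beside -0.29 over all genes, and 0 of 10 inhibitory genes were called. The linker gene Lat stood at 237 to 274 CPM in mast cells, 89.0 to 162 in basophils and 0.984 to 3.39 in Mo-Macs. It was called higher in mast cells by 7.25 (SE 0.541, adjusted p = 1.5e-08, edgeR) and in basophils by 6.53 (SE 0.528, adjusted p = 3.41e-08). In basophils against Mo-Macs, 5 of 17 activating genes were higher and 0 lower, and 3 of 10 inhibitory genes were higher, among them Ptpn6, a phosphatase recruited by inhibitory receptors, and 1 lower, the ubiquitin ligase gene Cblb, beside 6.46% and 10.9% of all genes. Pik3cd, a PI3-kinase subunit gene, was lower in mast cells than in basophils by -2.58 (SE 0.548, adjusted p = 0.00393), at 10.8 to 65.2 against 171 to 256 CPM.

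Scaling changed how many list genes were called. With DESeq2, 8 of 17 activating genes were called higher and 0 lower in mast cells against Mo-Macs, and with library sizes only 6 and 0. The inhibitory list, with no call above, then had 2 genes higher and 1 lower with DESeq2, and 1 and 0 with library sizes only. The other Fc receptor and adaptor genes went from 0 higher and 2 lower to 2 and 1 with DESeq2. In basophils the activating counts were 8 and 0 with DESeq2, and 4 and 0 with library sizes only. The inhibitory counts there were 3 and 3 with DESeq2, and 2 and 2 with library sizes only.

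In neutrophils against Mo-Macs, 6 of 17 activating genes were called higher, including Syk, the kinase that docks on the gamma chain, at 348 to 597 against 77.0 to 140 CPM. The 1 called lower was Fyn, at 5.82 to 19.1 against 58.7 to 128 CPM. Of the 10 inhibitory genes, 3 were called higher, Pag1 and Rabgef1 among them, and 1 lower, Cblb. The median was 0.70 for the inhibitory list and 0.33 for the activating list, so higher values were not particular to activating genes. The shares over all genes were 10.2% higher and 11.0% lower. Of the other Fc receptor and adaptor genes, 10 of 14 had enough reads to be tested. Tyrobp, an adaptor of the same kind as the gamma chain, was lower in mast cells than in basophils by -2.73 (SE 0.45, adjusted p = 0.000357, edgeR), at 348 to 458 against 1591 to 2819 CPM. Fcgrt, the neonatal Fc receptor that recycles IgG, was at 525 to 910 CPM in Mo-Macs and at most 23.0 CPM in the sums of mast cells, basophils and neutrophils. It was lower in each, by -6.56, -5.72 and -5.19. Fcer2a, the low-affinity IgE receptor, was at no more than 5.74 CPM in any sum of these 4 types. No list gene was called between genotypes, with edgeR or DESeq2.

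Over 36 sums of cell type and pool, the genes with the pattern most like each member were ranked by the correlation of log2(CPM + 1), as a description over sums that share 4 pools and 1 library. Fcer1a and Ms4a2 both had Slc18a2 (r = 0.969 and 0.967), a transporter that loads amines into granules, and the protease genes Cpa3 and Ctsg as their closest 3 genes. Cyp11a1, a gate marker, was among the 5 for both. The other gene was Gm47415 for Fcer1a and Cd200r3, also a gate marker, for Ms4a2. Sums gated on a marker are partly bound to follow it. For Fcer1g they were Tyrobp (0.942), Plek, Vav1, Ptpn6 and Lilrb4a. Msr1 (0.935), a scavenger receptor gene, was closest to Fcgr1, followed by Iqsec3, Ms4a4a, Arg1 and Gm38416. Fcgr2b was most like Ftl1-ps1 (0.928), Ftl1, Gm15590, Cfp and Spi1. Fcgr3 was most like Milr1 (0.905), Plek, Gm49339, Btk and Lilrb4a, and Fcgr4 most like P2ry13 (0.982), Sirpb1b, Sirpb1c, Clec4n and Gm5150.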

How the data were processed

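Ear skin cells were captured on a BD Rhapsody system with TAS-Seq, and a cDNA and a hashtag library were sequenced. Per the study's methods, the authors trimmed reads with Cutadapt, mapped them with Bowtie2 to the Ensembl RNA of GRCm38.p6, called cells at the inflection of the knee plot and deposited read counts per gene and barcode, and hashtag read counts. A background correction is also described, yet 22.1% of nonzero values are 1. Whether the single-cell counts used strand is not given in the sources used here.

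The counts were used as deposited. A barcode was kept with at least 200 genes, at most 20% mitochondrial reads, at least 10 hashtag reads and a leading hashtag at least 3 times the next (pseudocount 1), which is also how doublets were removed. Of 1835 barcodes left out, 760 had too few hashtag reads and 570 several hashtags. The 9 hashtag columns without a label were not used. A marker was on at 2 or more reads and at least 50 CPM or 10 times the median of cells, whichever was higher, and a type needed 3 markers on and 1 more than any other type. A cell that also had 3 or more markers of a second type on was left without a type. Some pairs of types were exempt from that rule, mast cells with basophils among them. Of 1747 cells without a type, 1433 had fewer than 3 markers on, 153 had equal marker counts and 161 had markers of 2 types. These gate limits were set after seeing the data.

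Reads were summed per pool and type (23 sums, 12 residual degrees of freedom) and tested with edgeR 4.0.16 in R 4.3.3 (TMM, filterByExpr, Benjamini-Hochberg), with the pool as a block because each pool gave its types from 1 preparation. The SE printed with edgeR values is not an output of its test. It was derived as the absolute log2 fold change divided by the square root of the F statistic. DESeq2 1.42.0 was an alternative, and its missing adjusted p stayed missing. Nothing in the labels says that pools were separate animals. The p-values between cell types rest on the variation left between sums after the type and pool terms. Those between genotypes rest on the variation left between Mo-Mac sums after the day and genotype terms. Neither measures the spread between animals. Intervals are exact 95% Poisson or binomial ones, and the floor is 3 reads. On simulated counts, 2- and 16-fold changes between mast cells and basophils were recovered for 1 and 39 of 50 genes, with 2 false calls in 13980 genes. These counts had a common mean per gene over all types, no pool effect and changes in the mast cell sums only. The rates therefore need not hold for the real sums, in which many genes differ between types.

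The members, marker lists and signalling lists were chosen with earlier results of these data known. The 7 members are named throughout. From each list, the counts and up to 2 called genes of largest change in each direction were eligible by rule, and the 5 genes most like each member among 16614 with at least 10 CPM in 1 sum. Positions are from GENCODE on GRCm38 and promoters from RefSeq. The values of Fcer2a were named after they were seen. Values of some list and marker genes are not reported here.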

Additional observations from a re-analysis of the deposited data

Results flagged for a closer look

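3 members had day 5 to day 3 ratios in Mo-Mac-gated cells that lay on opposite sides of 1 in the WT and Ccr2-/- pools, with counting intervals that did not overlap. The ratio for Fcer1g was 0.858 in WT and 1.11 in Ccr2-/- pools. For Fcgr1 it was 0.509 and 1.06, and for Fcgr4 0.535 and 1.14, and the Ccr2-/- intervals of these 2 genes included 1. The difference was not tested, since each ratio rests on 1 pool a day. The share of Mo-Macs with monocyte markers moved with it, as 49 of 56 cells of that group were in WT day 3. The directions stayed opposite when cells with at least 3 monocyte markers on were left out. Without those cells the Ccr2-/- intervals of Fcgr1 and Fcgr4 lay above 1.

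Among the 1835 barcodes left out of the comparisons, 15 had at least 3 reads of each of Fcer1a, Ms4a2 and Fcer1g (0.817%, exact 95% interval 0.458 to 1.35). They were not assigned to a type.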

How the results depend on the processing

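Of 316 member fold changes under an alternative, 278 kept their direction and their side of the threshold, 24 lost the call, 4 gained it and 10 changed sign, and all 38 levels compared moved by less than 1 SD over pools. Without one pool at a time, the genes called ranged from 525 to 1544 for mast cells against basophils (1550 with all pools), 678 to 1207 for mast cells against Mo-Macs (1315), 1196 to 2469 for basophils (2719), 1243 to 3338 for neutrophils (3333) and 273 to 379 for migratory DCs (413), whose 1 sum was assumed to vary like those of other types. The lowest counts came without the Ccr2-/- day 3 or Ccr2-/- day 5 pool, which also leave fewer sums. DESeq2 called 2644 genes between mast cells and basophils, 975 for migratory DCs and 566 between genotypes. Keeping every gene with at least 1 read gave 732 for migratory DCs and 768 between genotypes. Other settings gave 1 call between genotypes (library sizes only, a hashtag ratio of 10, a mitochondrial limit of 10%, a stricter gate) or 13 (Leiden clusters), where 0 were called. Scaling by library size alone moved the median of all genes by 0.31 (log2) in mast cells against basophils and by 0.16, -0.19 and -0.46 in mast cells, basophils and neutrophils against Mo-Macs (DESeq2: 0.28, 0.33 and 0.21, and 0.69 in migratory DCs), and the higher calls from 785 of 1550 to 1231 of 1843 in mast cells against basophils, and from 1605 of 3333 to 1192 of 4024 in neutrophils against Mo-Macs. The sign changes were all of values that did not pass the test: Fcer1g in mast cells against basophils (0.0801, library sizes only) and in basophils against Mo-Macs (0.0217 with DESeq2, and from -0.344 to 0.0907 without one pool), Fcgr3 in mast cells against basophils (-0.0863 without Ccr2-/- day 3 to 0.763 without WT day 3), and between genotypes Fcgr1 (0.0227 at a hashtag ratio of 10, 0.10 with clusters, 0.13 without cells of over 100000 reads) and Fcgr4 (0.21 with clusters, 0.38 without those cells, 0.0378 with a stricter gate). The cause was not tested. The share of cells with all 3 chains was 55.9% of mast cells and 22.6% of basophils at 3 reads a chain, and 60.6% and 25.6% when thinned to 5000 reads. Without the pool as a replicate block, 1746 genes were called between mast cells and basophils, 1614, 3035, 3842 and 611 in the comparisons of mast cells, basophils, neutrophils and migratory DCs with Mo-Macs, and 0 of 22 member calls changed. Migratory DCs could not be fitted with clusters, a mitochondrial limit of 10%, a stricter gate, or without WT day 3 or cells of over 100000 reads, and no genotype fit without a pool was run, since it leaves no residual degrees of freedom.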

Other observations

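The 10 cells gated as Schwann cells, the glia of skin nerves, gave Fcgr2b at 1439 CPM (1310 to 1578), with reads in 7 of the 10 cells and 38.3% of them in 1 cell. The same 10 cells had 1 read of Fcer1g and 0 reads of Fcer1a, Ms4a2, Fcgr1, Fcgr3 and Fcgr4. Eosinophil-gated cells numbered 9 over the 4 pools, in which Fcgr3 was at 604 CPM (423 to 836) with 58.3% of its 36 reads in 1 cell, and Fcer1g at 470 CPM with 78.6% of its 28 reads in 1 cell, with 0 reads of Fcer1a and Ms4a2. B-cell-gated cells numbered 12 and gave Fcgr2b at 67.5 CPM (30.9 to 128), from 9 reads in 2 of the cells with 88.9% of them in 1, and Fcgr3 at 0 reads.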
